A study of Bos grunniens and Bos grunniens x Bos taurus with 12 samples.

Results

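The fibrous sheath, the outer dense fibres and the tektin filaments are structural parts of the sperm tail, and their genes were described here by the ribosome footprints they carried in yak and cattle–yak testis. A list of 10 symbols was looked up in the gene tables, namely *AKAP3*, *AKAP4*, *AKAP14*, *ODF1*, *ODF2* and *TEKT1* to *TEKT5*. Of these 10 symbols, 7 matched 1 gene each among the 20965 genes in the tables, and *AKAP4*, *AKAP14* and *TEKT4* were absent as symbols. For each of these 3 absent symbols, 1 row without a symbol carried the protein name in its description. The values of these 3 described rows are given apart, and they are not counted among the 7 genes.

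Ribo-seq, the sequencing of the RNA fragments that translating ribosomes protect, was performed on whole testis of 12 untreated males, with 1 library for each animal and 3 animals in each of 4 groups. The groups were yak of 6 months at the juvenile stage (Y6M), yak of 18 months at puberty (Y18M), yak of 4 years at sexual maturity (Y4Y) and cattle–yak of 4 years (CY). The yak is *Bos grunniens*, and the cattle–yak was the hybrid of a Jersey bull and a Gannan yak cow, of which the males are sterile. The sample labels give castration as the source of all testes, whereas the study's methods give euthanasia for the 4-year yak. Hybrid status and the way of collection therefore cannot be told apart. The same holds for the age of 4 years and the way of collection among the yak. The comparisons asked how the translation level of these genes changed with sexual maturation in yak and how it differed in the sterile hybrid.

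The sperm tail is built around an axoneme of doublet microtubules. Outer dense fibres run along the doublets, and in the principal piece a fibrous sheath surrounds the fibres and anchors signalling and glycolytic enzymes. *AKAP3* and *AKAP4* encode the scaffold proteins of the fibrous sheath, which tether protein kinase A, and *AKAP14* encodes a smaller kinase anchor of the axoneme. *ODF1* and *ODF2* encode main proteins of the outer dense fibres, and ODF2 is in addition a protein of centriole appendages in somatic cells. Tektins form filaments inside the doublets of cilia and flagella, and most of these genes are known for their activity in spermatids, the germ cells that have completed meiosis.

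The libraries held between 16304058 and 52616039 counts in the 20965 genes. The cattle–yak libraries were the deepest and the 4-year yak libraries the shallowest, and each pair of replicates differed by more than counting noise. One library stood apart from its group. The second library of the 18-month yak had a summed FPKM of elongating spermatid markers (3 of 7 listed markers found) of 6184, whereas the other 18-month libraries had 0.94 and 11.7 and the 4-year yak libraries had 7332 to 10476. The summed Sertoli cell markers (5 of 7 found), which mark the somatic cells of the seminiferous tubule, were above 0 in all libraries, from 594 in a 4-year yak to 7542 in a 6-month yak. Results with the 18-month group are therefore given with and without this library. Levels below are in FPKM, a count scaled by effective gene length and library depth, so that genes can be compared with each other.

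Among the 4-year yak, *ODF2* had the highest and *TEKT3* the lowest translation level of the 7 genes. Mean FPKM was 658 ± 73.7 (SD, n = 3) for *ODF2*, 597 ± 73.8 for *ODF1*, 272 ± 31.3 for *TEKT2*, 160 ± 21.8 for *TEKT1*, 97.3 ± 11.8 for *AKAP3*, 91.5 ± 7.13 for *TEKT5* and 72.2 ± 18.7 for *TEKT3*. *ODF2* and *ODF1* ranked 191 and 214 from the top among the 19115 genes with an FPKM above 0 in this group. Neighbours in this order had overlapping ranges for *ODF2* and *ODF1*, for *AKAP3* and *TEKT5*, and for *TEKT5* and *TEKT3*. In cattle–yak the order was different. *ODF2* remained highest with a mean of 93.6 ± 33.6 (SD, n = 3), *TEKT3*, *TEKT1* and *TEKT2* followed at 2.13 ± 0.0889, 1.90 ± 0.465 and 1.73 ± 0.587, *AKAP3* and *ODF1* both averaged 0.497, and *TEKT5* was last at 0.0733 ± 0.0681. The ranges of *TEKT1*, *TEKT2* and *TEKT3* overlapped, and so did that of *ODF1*, at 0 to 1.42, with those of *TEKT2*, *AKAP3* and *TEKT5*. From footprints of whole testis alone, fewer cells of a type, less RNA per cell and fewer ribosomes on each RNA cannot be told apart.

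**Figure D1:**
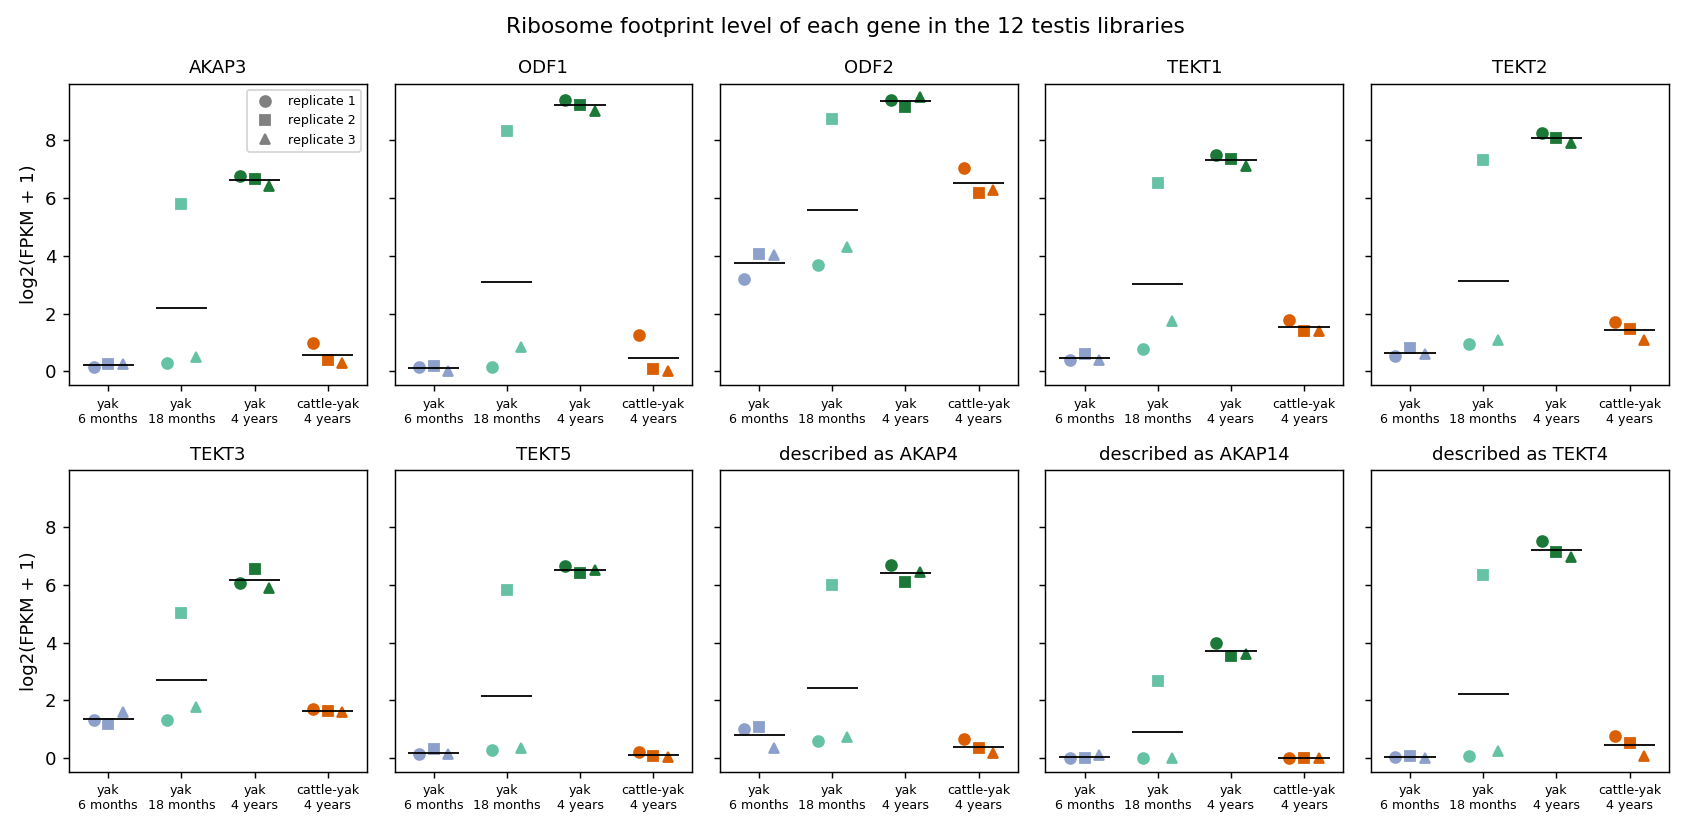
Level of each gene in the 12 libraries as log2(FPKM + 1) on the vertical axis, with 1 panel per gene, groups along the horizontal axis, 1 point per library (the shape gives the replicate) and a line at the mean of the plotted log2 values of each group. The 4-year yak libraries are above the 6-month yak and the cattle–yak libraries in all panels, and the second 18-month library is just below the 4-year libraries.

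Fibrous sheath. *AKAP3* (ENSBGRG00000011443) had an FPKM of 108, 99.8 and 84.4 in the 4-year yak libraries, against 0.96, 0.32 and 0.21 in those of cattle–yak. In the 6-month yak it was 0.11, 0.20 and 0.19, and in the 18-month yak 0.23, 54.5 and 0.41. The 4-year yak libraries were thus above all others, and no cattle–yak library reached an FPKM of 1. In a test of cattle–yak over 4-year yak, *AKAP3* fell by 7.62 on the log2 scale (SE 0.525, edgeR quasi-likelihood test, adjusted p = 7.11e-06), and the log2 fold change was −8.59 without the first cattle–yak library. The row described as AKAP4 (ENSBGRG00000025520) had an FPKM of 103, 67.4 and 86.0 in the 4-year yak against 0.60, 0.27 and 0.13 in the hybrid, which gave a log2 fold change of −7.90 (SE 0.467, edgeR adjusted p = 3.43e-06). The row described as AKAP14 (ENSBGRG00000019326) was much lower, with 130, 97 and 85 counts in the 4-year yak. It had no count in any cattle–yak library, at least 257-fold lower than in the 4-year yak when a floor of 3 counts is taken over the cattle–yak group.

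Outer dense fibres. *ODF1* (ENSBGRG00000008140), which encodes a small heat-shock-like protein found in the dense fibres, had an FPKM of 672, 596 and 524 in the 4-year yak libraries, against 1.42, 0.07 and 0 in those of cattle–yak. These cattle–yak values came from 56, 2 and 0 counts, so that nearly all cattle–yak footprints of *ODF1* were in 1 animal. In the 6-month yak the FPKM was 0.10, 0.14 and 0, and in the 18-month yak 0.11, 319 and 0.81. *ODF1* fell by 10.03 on the log2 scale in cattle–yak against the 4-year yak (SE 0.880, edgeR adjusted p = 2.53e-05). Without the first cattle–yak library the call held, but only 2 counts were left in the group and the fitted log2 fold change moved to −13.84. The ratio of the 4-year yak to the other cattle–yak libraries was then 17447, with an interval of 4830 to 144064 for counting error alone (95%, exact Poisson).

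*ODF2* (ENSBGRG00000010746) was the 1 gene that kept a high level in the hybrid. It had an FPKM of 132, 71.8 and 76.7 in cattle–yak, against 679, 576 and 719 in the 4-year yak. In the 6-month yak it was 8.16, 15.6 and 15.4, and in the 18-month yak 11.8, 431 and 19.03. The cattle–yak libraries therefore lay between the 6-month and the 4-year yak, without overlap with either. *ODF2* fell by 2.57 on the log2 scale in cattle–yak against the 4-year yak (SE 0.249, edgeR adjusted p = 4.26e-05), which is 5.96-fold. In FPKM, the cattle–yak mean of *ODF2* was 14.2% of its 4-year yak mean. For the other 6 genes it was between 0.0801% (*TEKT5*) and 2.95% (*TEKT3*). The fold change of 5.96 is of counts. FPKM also divides by an effective length, which for *ODF2* was 1.17-fold longer in cattle–yak.

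Tektins. *TEKT1* (ENSBGRG00000013744) had an FPKM of 181, 161 and 137 in the 4-year yak and of 2.44, 1.63 and 1.64 in cattle–yak. *TEKT2* (ENSBGRG00000009332) had 305, 271 and 242 against 2.29, 1.78 and 1.12. *TEKT3* (ENSBGRG00000015371) had 65.6, 93.4 and 57.7 against 2.23, 2.10 and 2.06. These 3 tektins had an FPKM above 1 in each cattle–yak library. In the 6-month yak their ranges were 0.30 to 0.52 for *TEKT1*, 0.44 to 0.77 for *TEKT2* and 1.25 to 2.02 for *TEKT3*. *TEKT5* (ENSBGRG00000026639) had 98.6, 84.4 and 91.6 in the 4-year yak against 0.15, 0.05 and 0.02 in cattle–yak, the latter from 12, 3 and 1 counts. Without the first cattle–yak library the log2 fold change of *TEKT5* moved from −10.07 to −11.24. No tektin had overlapping groups of cattle–yak and 4-year yak, beside 27.0% of all genes called lower and 17.1% called higher in this comparison. The share of all genes without overlap was not computed for any comparison. The log2 fold change of cattle–yak over 4-year yak was −6.37 for *TEKT1* (SE 0.243, edgeR adjusted p = 6.07e-07), −7.27 for *TEKT2* (SE 0.302, edgeR adjusted p = 7.63e-07), −5.07 for *TEKT3* (SE 0.219, edgeR adjusted p = 8.90e-07) and −10.07 for *TEKT5* (SE 0.382, edgeR adjusted p = 5.96e-07). The row described as TEKT4 (ENSBGRG00000007021) had an FPKM of 183, 140 and 125 in the 4-year yak against 0.71, 0.43 and 0.06 in the hybrid, which gave a log2 fold change of −8.46 (SE 0.562, edgeR adjusted p = 5.87e-06).

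In the comparison of cattle–yak with 4-year yak, 7 of 7 genes were called lower, where a call needs an edgeR adjusted p below 0.05 and an absolute log2 fold change of at least 1. Over all 16498 genes tested, 27.0% were called lower. The median log2 fold change was −7.27 for the 7 genes and −0.00 for all genes tested. *ODF1* and *TEKT5* passed the filter on low counts through the 4-year yak group alone, so that they had to differ once tested. The first cattle–yak library was the highest of its group for 7 of 7 genes, and all 7 calls held without it.

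The markers of spermatids moved with these genes. The summed FPKM of the round spermatid markers (5 of 7 found) was 1120 to 1791 in the 4-year yak, 3.35 to 7.55 in cattle–yak and 0.33 to 0.74 in the 6-month yak. The elongating spermatid markers found (*TNP1*, *SPEM1* and *TSSK6*) summed to 7332 to 10476, to 1.86 to 25.1 and to 0.13 to 0.92 in these groups. The spermatocyte markers (6 of 7 found), which mark germ cells in meiosis, summed to 724 to 770 in the 4-year yak, 307 to 473 in cattle–yak and 125 to 187 in the 6-month yak, but they did not move as 1 list. *PIWIL1* averaged an FPKM of 324 ± 33.6 in the 4-year yak and 17.3 ± 12.9 in cattle–yak (SD, n = 3 each), whereas *SYCP3*, a part of the synaptonemal complex, averaged 69.9 ± 9.47 and 113 ± 35.3. In the 6-month yak nearly the whole sum was *HORMAD1*, at 148 ± 31.2 (SD, n = 3), with each other marker at a mean of at most 2.11. The first cattle–yak library was the highest of its group for all 3 of these sums as well. The Sertoli cell sum was 594 to 820 in the 4-year yak, 1120 to 1366 in cattle–yak and 6097 to 7542 in the 6-month yak. Because tektins are also ciliary, markers of multiciliated epithelium (7 of 8 found) were examined. Their sum ranged from 7.39 to 37.2 over the 12 libraries and was carried by *TPPP3*, which was between 5.53 and 36.9, whereas the regulators of multiciliated cells *MCIDAS*, *GMNC* and *CCNO* had an FPKM of at most 0.38 in any library. Other genes of the list were, like the 7 genes, higher in each 4-year yak library than in any cattle–yak or 6-month yak library. *FOXJ1*, a regulator of motile cilia, was at 3.80 to 5.25 in the 4-year yak, 2.65 in the second 18-month library and at most 0.44 elsewhere. *SNTN* was at 0.52 to 1.31 in the 4-year yak and at most 0.16 in cattle–yak and 6-month yak, *GMNC* at 0.18 to 0.38 against 0, and *CDHR3* at 0.14 to 0.16 against at most 0.02. These values are near the floor, with 23 counts of *SNTN*, 14 of *GMNC* and 19 of *CDHR3* in the 4-year yak group in all. The peritubular myoid cell markers (5 of 5 found) summed to 780 to 1291 in cattle–yak and 211 to 219 in the 4-year yak, and the Leydig cell markers (2 of 6 found) to 580 to 1041 and 58.8 to 188. The part of cell composition in the differences of the 7 genes was not tested.

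**Figure D2:**
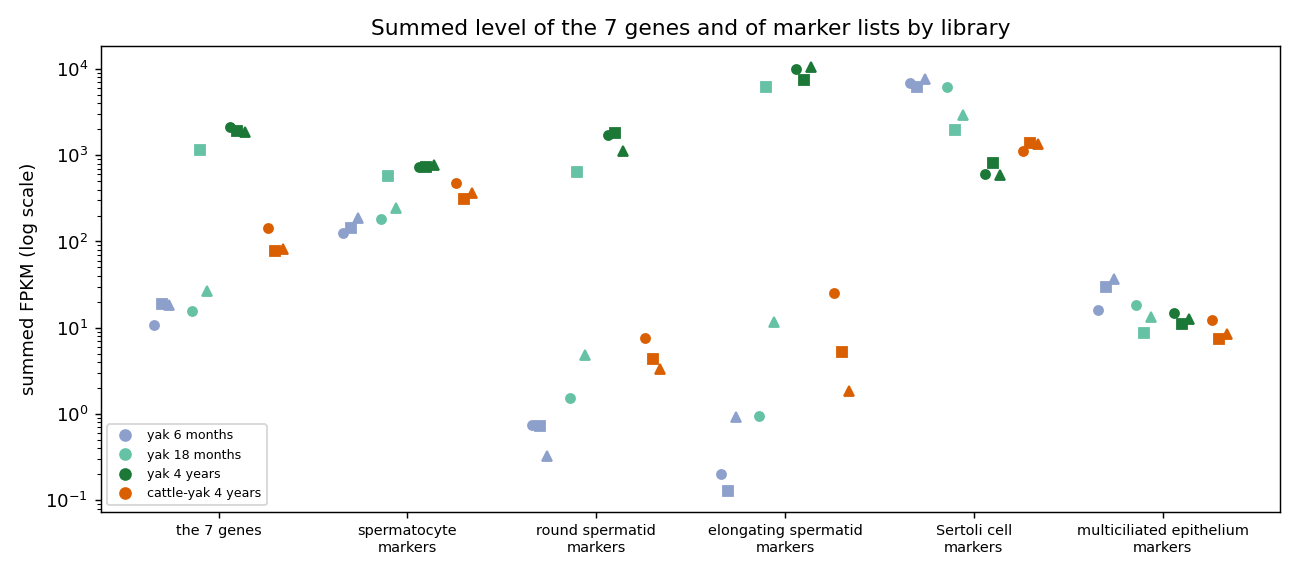
Summed FPKM on a log axis for the 7 genes and for 5 marker lists, with 1 point per library (circle, square and triangle are replicates 1, 2 and 3) coloured by group. The 7 genes and the spermatid markers are high in the 4-year yak and in the second 18-month library and low in the other libraries. The multiciliated epithelium sum is between 7.39 and 37.2, and *TPPP3* is its largest part. Single genes are not shown, and *FOXJ1*, *SNTN*, *GMNC* and *CDHR3* of that list have their highest group mean in the 4-year yak.

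During sexual maturation of yak, each of the 7 genes rose. In the 4-year yak over the 6-month yak, 7 of 7 were called higher, against 31.0% of the 16133 genes tested. The largest log2 fold changes were 12.13 for *ODF1* (SE 0.417, edgeR adjusted p = 6.06e-08) and 8.69 for *TEKT5* (SE 0.292, edgeR adjusted p = 5.68e-08). *AKAP3*, *TEKT2* and *TEKT1* followed at 8.65, 8.30 and 8.13. The smallest were 4.95 for *TEKT3* (SE 0.267, edgeR adjusted p = 5.50e-07) and 4.90 for *ODF2* (SE 0.256, edgeR adjusted p = 4.58e-07), the genes with the highest levels at 6 months. The 6-month libraries held 6 counts of *ODF1* in all, and only *ODF2*, *TEKT2* and *TEKT3* would have passed the filter on low counts in the 6-month group alone, so that the other 4 had to differ once tested. The 3 described rows were also called higher in this comparison. The rows described as AKAP14 and TEKT4 held 1 and 4 counts in the 6-month group, so that they had to differ once tested. This comparison shares the 4-year yak libraries with the comparison above.

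**Figure D3:**
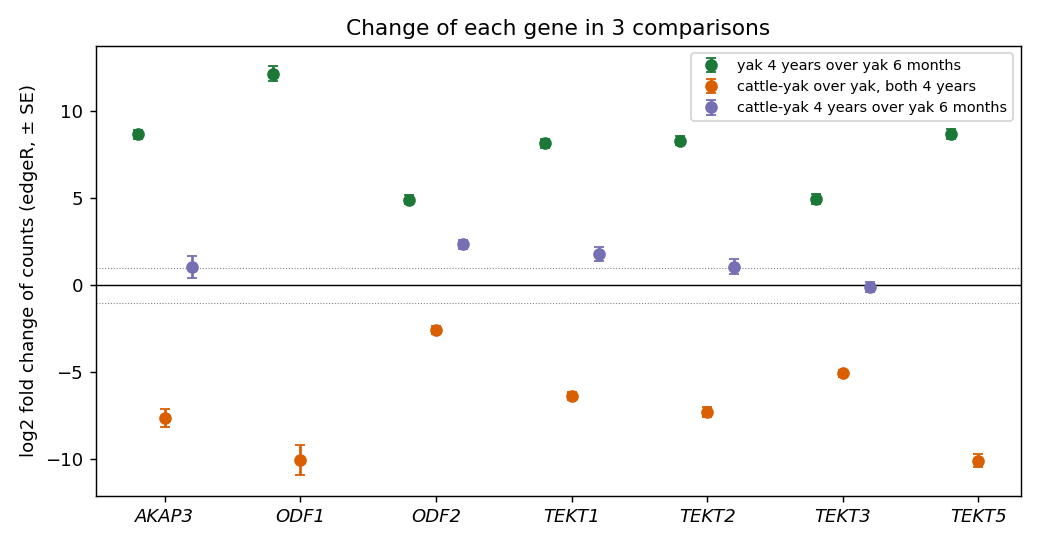
Log2 fold change of counts from edgeR on the vertical axis for each gene in 3 comparisons, with bars of ± 1 SE, a solid line at 0 and dotted lines at 1 and −1. All genes are above 4 for 4-year over 6-month yak and below −2 for cattle–yak over 4-year yak, and *ODF1* and *TEKT5* have no point for cattle–yak over 6-month yak because they did not pass the filter on low counts there.

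At 18 months the 3 animals were not alike. The second library was the highest of its group for 7 of 7 genes, 13.3-fold (*TEKT3*) to 393-fold (*ODF1*) above the next 18-month library, and below each 4-year library for 7 of 7 genes. Its level was 44.0% (*TEKT3*) to 65.4% (*ODF2*) of the 4-year mean. The other 18-month libraries had an FPKM of at most 2.39 for each gene except *ODF2*, at 11.8 and 19.03. In 18-month over 6-month yak, 0 of the 5 genes tested were called by edgeR, with 4 at an unadjusted p below 0.05, and DESeq2 called 0. Of all genes tested, edgeR called 0.0672% and DESeq2 12.8% in either direction. Without the second library edgeR again called 0 of 5 (1 at an unadjusted p below 0.05), against 0.504% of all genes, at log2 fold changes from −0.07 (*ODF2*) to 1.66 (*TEKT1*). Without the first library 7 genes were tested and 5 of 7 were called higher, all but *ODF2* and *TEKT3*, against 8.70% of all genes. That fit kept the second library. *ODF1* and *TEKT5*, which were not tested with all libraries in, held 6 and 21 counts in the 6-month group. They passed the filter on low counts through the 18-month group alone, so that they could only come out higher.

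In 4-year over 18-month yak, edgeR called 0 of 7 genes, with 0 at an unadjusted p below 0.05, and DESeq2 also called 0, with 1 at an unadjusted p below 0.05. The share of all genes called in either direction was 0.0371% by edgeR and 27.3% by DESeq2. Without the second 18-month library, 7 of 7 were called higher, against 26.1% of all genes tested, and the log2 fold changes ran from 5.02 (*ODF2* and *TEKT3*) to 10.11 (*ODF1*). The library left out had been set apart by its high spermatid markers. In the other 18-month libraries *ODF1* held 2 and 15 counts and *TEKT5* 8 and 10. These genes passed the filter on low counts through the 4-year yak group alone, so that they could only come out higher.

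Cattle–yak was next set beside the immature yak. In cattle–yak over 6-month yak, 2 of the 5 genes tested were called higher, against 18.1% of all genes tested. *ODF2* rose by 2.34 on the log2 scale (SE 0.275, edgeR adjusted p = 0.000216) and *TEKT1* by 1.80 (SE 0.411, edgeR adjusted p = 0.00600), and no library of the groups overlapped for either gene. *TEKT2* had a log2 fold change of 1.05 (edgeR adjusted p = 0.0589) and was called by DESeq2 (adjusted p = 0.0395), which called 18.9% of all genes higher. Its adjusted p ran from 0.00674 to 0.578 over the alternatives. *AKAP3*, at 1.03 (SE 0.644, edgeR adjusted p = 0.202), and *TEKT3*, at −0.10 (SE 0.291, edgeR adjusted p = 0.777), were not called. The direction of *TEKT3* turned with the scaling, to 0.43 with library size alone, where the median of all genes was 0.52. *ODF1* and *TEKT5* did not pass the filter, and their FPKM ranges overlapped, at 0 to 1.42 in cattle–yak and 0 to 0.14 in the 6-month yak for *ODF1* and at 0.02 to 0.15 and 0.09 to 0.23 for *TEKT5*. With the 12 libraries in 1 fit, which takes the spread of the 18-month group into the estimate, 7 were tested and 0 were called, against 32.1% of all genes in either direction.

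In cattle–yak over 18-month yak, edgeR called 0 of 7 genes, with 5 at an unadjusted p below 0.05, and DESeq2 called 0. Over all genes tested, edgeR called 5.80% and DESeq2 15.8% in either direction. Without the second 18-month library *ODF2* was called higher at 2.43 (SE 0.320, edgeR adjusted p = 0.00939), beside 7.22% of all genes tested, and the other 6 were not called.

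*ODF2* made up most of the summed level of the 7 genes wherever the spermatid markers were low. Its share of the sum was 32.2%, 30.6% and 38.8% in the 4-year yak libraries, and in cattle–yak it was 93.3%, 92.3% and 93.8%. The means were 33.9% ± 4.31 and 93.2% ± 0.748 (SD, n = 3 each, exact two-sided permutation test, p = 0.1, the smallest p that 3 against 3 allows), a contrast chosen after the values were seen. In the 6-month yak the share was 76.4% to 83.3%, and in the 18-month yak 76.3%, 37.8% and 72.0%, the low one in the second library. Without *ODF2*, the other 6 genes summed to an FPKM of 1137 to 1429 in the 4-year yak, 5.05 to 9.49 in cattle–yak and 2.52 to 3.12 in the 6-month yak. The sum without *ODF2* was thus higher in each cattle–yak library than in any 6-month yak library. The 3 described rows are not in this sum. Their own sum overlapped, at 0.19 to 1.31 in cattle–yak and 0.33 to 1.16 in the 6-month yak.

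**Figure D4:**
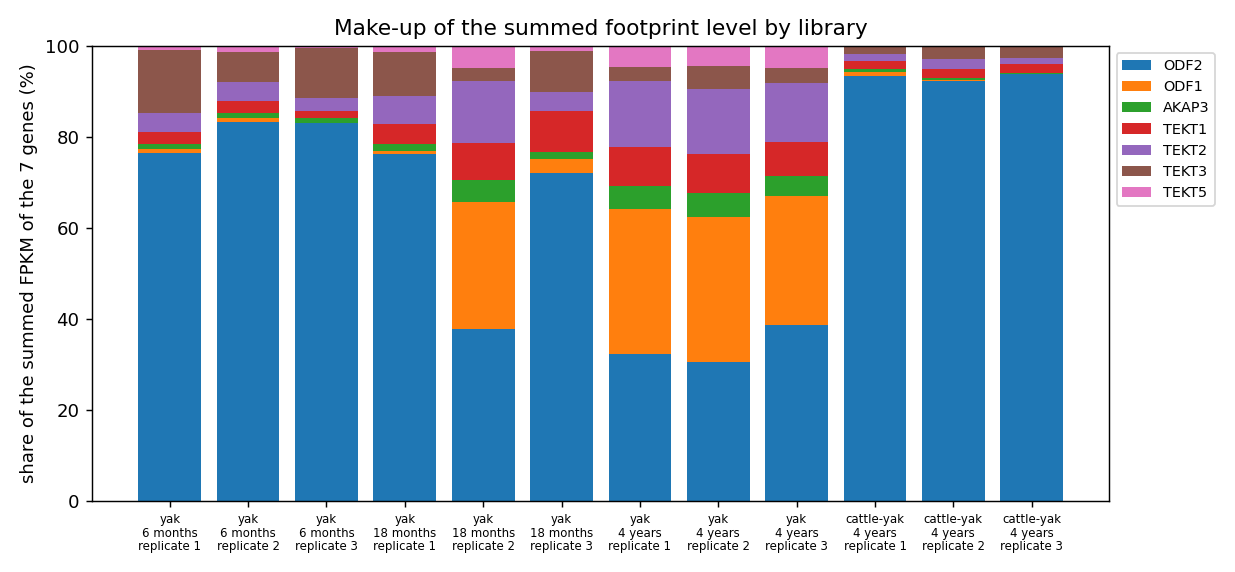
Share (%) of each gene in the summed FPKM of the 7 genes, stacked to 100% for each of the 12 libraries. *ODF2* takes 30.6% to 38.8% in the 4-year yak libraries, 37.8% in the second 18-month library and 92.3% to 93.8% in the cattle–yak libraries.

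The deposited values also hold the gene length behind each FPKM, since a count and its FPKM together with the library total give back an effective length in bases. For *ODF2* this length was 1974, 2009 and 1966 bases in the 4-year yak and 2260, 2353 and 2359 bases in cattle–yak. It was 2359, 2286 and 2261 bases in the 6-month yak and 2283, 1965 and 2267 bases in the 18-month yak, the short one in the second library. *ODF2* thus had the shorter value in the 4 libraries with high spermatid markers and the longer value in the other 8. Relative to the median gene of each library, the index was 1.42 ± 0.0152 in the 4-year yak and 1.66 ± 0.0389 in cattle–yak (SD, n = 3 each), a ratio of 1.17 (exact two-sided permutation test, p = 0.1, the smallest possible). Of the 10762 genes with an FPKM of at least 1 and at least 50 counts in each library of both groups, 1.82% had groups that did not overlap and a mean over 1.1-fold higher in cattle–yak. *TEKT1*, *TEKT2* and *TEKT3* had ratios of 0.9999, 1.0001 and 1.0005. Which *ODF2* transcripts the authors' estimate drew on was not tested, because no transcript values were used here.

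**Figure D5:**
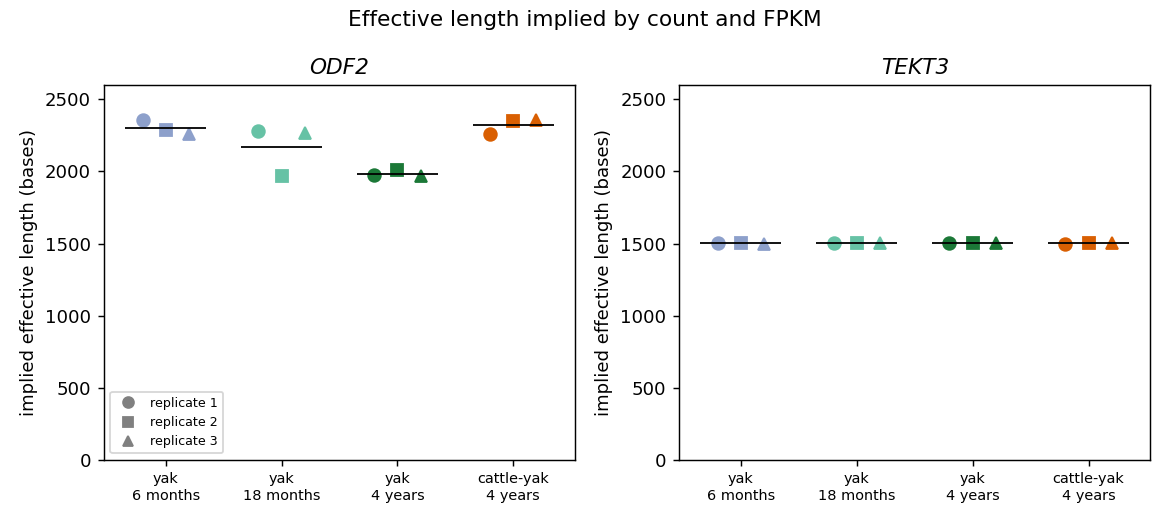
Effective length in bases implied by count and FPKM for *ODF2* and *TEKT3*, with 1 point per library (the shape gives the replicate) and a line at each group mean. *ODF2* lies at 1965 to 2009 bases in the 4-year yak and the second 18-month library and at 2260 to 2359 bases elsewhere, whereas *TEKT3* stays near 1500 bases in the 12 libraries.

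Known partners of these proteins were taken from 4 lists, of which 27 genes were found. They were 1 of 11 fibrous sheath partners, 8 of 12 dense fibre partners, 12 of 18 tektin partners of the doublet microtubule and 6 of 8 genes of the midpiece and annulus. In cattle–yak against 4-year yak, 24 of the 27 were called lower (27.0% of all genes tested), 1 was called higher (17.1%) and 2 were not called. Of the 27, 9 passed the filter on low counts through the 4-year yak group alone and so had to differ, among them *SPAG4*, *TSSK4*, *TEKTIP1*, *SPATA19* and *TBC1D21*. The glycolytic enzyme gene *GAPDHS*, whose product is bound to the fibrous sheath, went from 542 ± 19.7 to 1.32 ± 0.173 FPKM (SD, n = 3 each), a log2 fold change of −8.66 (edgeR adjusted p = 3.83e-07). Among dense fibre partners, *SPAG4*, whose product binds ODF1, had a log2 fold change of −8.28, and *TSSK4*, whose kinase acts on ODF2, one of −8.74. *TEKTIP1* and *RIBC2*, whose products lie inside the doublet, were at −8.48 and −7.06. *SPATA19* and *TBC1D21*, genes of the mitochondrial sheath, were at −9.91 and −9.21.

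*CFAP20*, which encodes a protein at the inner junction of the doublet and is also used in other cilia, was the 1 partner that went the other way. Its FPKM was 132 ± 9.42 in cattle–yak and 65.7 ± 5.71 in the 4-year yak (SD, n = 3 each), a log2 fold change of 1.01 (edgeR adjusted p = 0.000231), and with DESeq2 it did not reach the fold change threshold. *ODF2L*, a relative of *ODF2*, and *NME7* did not reach the fold change threshold, at −0.83 and −0.81. In 4-year over 6-month yak, 26 of the 27 partners were called higher, against 31.0% of all genes tested, and *CFAP20* was not called. Of the 27, 19 passed the filter through the 4-year yak group alone. In cattle–yak over 6-month yak, 8 of the 18 partners tested were called higher, against 18.1% of all genes tested, and 1, a tektin partner, was called lower. Of the 18, 6 passed the filter through the cattle–yak group alone and so could only come out higher. These included the 4 midpiece and annulus genes tested there, *ARMC12*, *GK2*, *SEPTIN12* and *SLC26A8*, with a mean FPKM of at most 0.983 in cattle–yak.

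Over the 12 libraries, the levels of the 7 genes followed each other. The Pearson r of log2(FPKM + 1) was at least 0.987 for each pair of *AKAP3*, *ODF1*, *TEKT1*, *TEKT2*, *TEKT3* and *TEKT5*, and between 0.876 and 0.927 for *ODF2* with the others. These are descriptions over 12 points that fall into high and low libraries. Among 12080 genes, the genes most like *ODF1* were *ACTRT2*, *IRGC* and *CRISP2* (r of 0.9996, 0.9995 and 0.9994), and 376 genes had an r above 0.99. *TEKT1* was most like *SPACA1*, *RIBC2* and *EFCAB6* (0.9986, 0.9982 and 0.9973), with 255 genes above 0.99. *ODF2* had only 19 genes above 0.99, led by *NUP50*, *PKMYT1* and *CCT6B* (0.9939, 0.9938 and 0.9936). *CCT6B*, for example, had an FPKM of 36.9, 14.6 and 22.5 in cattle–yak, between 1.87 to 4.19 in the 6-month yak and 187 to 244 in the 4-year yak, the order that *ODF2* also had.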

How the data were processed

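Ribosome footprints of 12 testes were sequenced, and the authors deposited, for each gene, a count and an FPKM in each library, in tables that each compare a pair of groups. Per the methods, the authors trimmed reads with fastp, removed rRNA and other short RNAs, kept footprint-sized reads, aligned them with STAR to the yak genome BosGru 3.0 and counted them in open reading frames with RSEM. The counts were deposited as whole numbers and the FPKM as deposited divides by an effective length. Cattle–yak reads include cattle alleles aligned to a yak genome, the effect of which on these values was not tested. The authors' fold changes, p-values and group means were not used.

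Groups came from the sample labels. The 7 genes, the partner lists and the marker lists were chosen with earlier results of these data known. The genes named beside the 7 were, from each partner list, the pair with the highest mean FPKM in 4-year yak, any gene called against the direction of its list, and the 3 symbols most correlated with *ODF1*, *ODF2* and *TEKT1* (*AKAP4* was planned and has no symbol). *ODF2L*, *NME7*, the single marker genes and the midpiece genes called in cattle–yak over 6-month yak were named after their values were seen. The values of 1 partner gene are not reported here.

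Counts were tested with edgeR 4.0.16 (filterByExpr, TMM, quasi-likelihood, R 4.3.3) on the 6 libraries of each of 6 comparisons, with Benjamini-Hochberg adjustment over all genes tested. The SE was taken as the log2 fold change over the root of the F statistic. Alternatives were DESeq2 1.42.0, other scalings, no filter, the 12 libraries in 1 fit, limma 3.58.1 on log2(FPKM + 1) and log2(FPKM + 0.1), a replicate block and leaving out each library. Scripts were tested on simulated data. Totals were 16304058 to 52616039 counts, so that a count of 1 stood for a lower level in the deeper cattle–yak libraries. Reads had no molecular identifiers, so the floor of 3 counts covers counting error only. Replicates were separate animals.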

Additional observations from a re-analysis of the deposited data

How the results depend on the processing

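All 7 genes were called in 4-year over 6-month yak and in cattle–yak over 4-year yak under each alternative run, leaving out any library included. With the 12 libraries in 1 fit, in which all 7 genes were tested, the genes called numbered 5 in 18-month over 6-month yak, 1 in 4-year over 18-month yak, 0 in cattle–yak over 6-month yak and 5 in cattle–yak over 18-month yak. Leaving out each library gave 0 to 5, 0 to 7, 2 to 3 and 0 to 1 in these comparisons. The fit of 12 libraries tested 16906 genes. Of these it called 2655 in 18-month over 6-month yak, 2613 in cattle–yak over 18-month yak and 32.1% in cattle–yak over 6-month yak. Its total for 4-year over 18-month yak is given below. Of the partner genes in 18-month over 6-month yak, DESeq2 called 3 of 15 tested, all higher, against 12.8% of all genes in either direction. The fit of 12 libraries called 14 of 27, the replicate block 1 of 15, and leaving out a library gave 0 to 9. Of the 15, 5 passed the filter on low counts through the 18-month group alone. In 4-year over 18-month yak DESeq2 called 4 of 27, all higher, against 27.3% of all genes in either direction. The fit of 12 libraries called 2 of 27, and leaving out a library gave 0 to 25. The 25 were called higher without the second 18-month library, against 26.1% of all genes. With all libraries in, 15 of the 27 passed the filter on low counts through the 4-year yak group alone, so that they could only come out higher. In cattle–yak over 6-month yak 1 of 27 was called in the fit of 12 libraries and 3 by limma on log2(FPKM + 1), with the filter (18 tested) and without it (27 tested). Over all genes, 5149 to 6833 were called there under the alternatives that kept each library. In cattle–yak over 18-month yak DESeq2 called 2 of 19, both lower, against 15.8% of all genes in either direction. The fit of 12 libraries called 7 of 27 there, and leaving out a library gave 0 to 1. The cause of these shifts was not tested.

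Directions turned in the following cases. In 18-month over 6-month yak, leaving out a library gave log2 fold changes of −0.068 to 3.45 for *ODF2* and −0.029 to 2.96 for *TEKT3*. In cattle–yak over 18-month yak it gave −6.27 to 0.30 for *AKAP3*, −1.01 to 2.43 for *ODF2*, −4.59 to 0.16 for *TEKT1* and −5.48 to 0.51 for *TEKT2*. In both comparisons the turned value was the one without the second 18-month library. *ODF2* in cattle–yak over 18-month yak was also 0.92 with limma on log2(FPKM + 1), 0.96 on log2(FPKM + 0.1) and 1.21 with the replicate block. *TEKT3* in cattle–yak over 6-month yak was 0.43 with library size alone, 0.29 with limma on log2(FPKM + 1), 0.43 on log2(FPKM + 0.1) and −0.28 to 0.068 when leaving out a library, the latter without the third 6-month library. Library size alone moved the median of all genes from −0.02 to 0.52 in cattle–yak over 6-month yak, from 0.05 to 0.42 in 18-month over 6-month yak and from 0.08 to 0.64 in 4-year over 6-month yak.

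Over all genes, 10 were called in 18-month over 6-month yak (1868 with DESeq2, 2655 in the fit of 12 libraries and 0 to 2593 when leaving out a library), 6 in 4-year over 18-month yak (4383, 3486 and 0 to 7310) and 910 in cattle–yak over 18-month yak (2401, 2613 and 0 to 2464). The totals of the fit of 12 libraries are out of 16906 genes tested. Replicate numbers were shared between groups but did not pair the samples, with correlations of same-numbered deviations from −0.301 to 0.117. With the numbers as a replicate block, the 7 genes kept their calls in the 6 comparisons, and 538, 0 and 1 genes were called over all genes in these 3 comparisons. At the depth of the cattle–yak libraries, *ODF1* and *TEKT5* rested on 58 and 16 counts in all, so that their fold changes there are less exact than that of *ODF2*.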
